A study of Rattus norvegicus with 12 samples.

Results

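The genes examined here are listed as writers, erasers or readers of methyl groups on cytosine in DNA. The members were a named list of 9 genes, looked up by rat Entrez identifier. Of the 9, 6 were found among the 16511 genes of the count table. These were Dnmt1 and Uhrf1, which maintain methylation, Dnmt3a and Dnmt3b, which set it anew, and Mbd2 and Mbd3, listed as readers. The erasers Tet1, Tet2 and Tet3 had no row under their current identifiers and were not analysed here. All values are from RNA, so they give the transcripts of this machinery and no methylation level.

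RNA was sequenced from 12 snap-frozen whole mammary glands of rats aged 21 postnatal days (PND21), each from a different litter. Of these glands, 6 were from rats exposed before birth to a high fat butter diet (HFB, libraries 1 to 6) and 6 from rats exposed to the control AIN diet (CTL, libraries 7, 8, 9, 10, 11 and 14). The design text starts the exposure in gestation, names an end after birth and also places the newborns on AIN alone, so the window was not settled. Total counts ran from 2320267 to 2944680 reads per library, which limits the precision of genes with few reads.

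Methylation of cytosine followed by guanine (CpG) is copied to the new strand after DNA replication by Dnmt1, which Uhrf1 brings to half-methylated sites. Dnmt3a and Dnmt3b place new marks, and Tet enzymes oxidise the methyl group as a step in its removal. Some proteins with a methyl-CpG-binding domain join the mark to chromatin complexes such as NuRD. In the mammary gland, as in other tissues, these genes act in dividing and differentiating cells, and a whole gland also holds fat, blood vessels and immune cells.

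Some libraries stood apart over the whole table. Levels are given in CPM, counts scaled to a common library total. The median absolute distance of a library from the median log2 CPM of 9382 genes was 0.66 in HFB 6, 0.51 in CTL 14 and 0.35 in HFB 5, against 0.12 to 0.19 in the others. Lymphoid markers, of which 11 of 12 were in the table with none at 0, summed to 1310 CPM in HFB 6 and 1528 CPM in CTL 14. HFB 1 followed with 539 CPM and HFB 2 with 242 CPM, while the other 8 libraries lay between 28.0 and 105 CPM. Ptprc, the pan-leukocyte phosphatase, had the most reads of this list, with 355 CPM in CTL 14, 185 CPM in HFB 6 and 169 CPM in HFB 1. Adipocyte markers, 9 of 9 in the table and led by Fabp4, summed to 15610 CPM in CTL 14 and 19370 CPM in HFB 6, against at least 32950 CPM in each of the others. The libraries rich in lymphoid transcripts and poor in fat transcripts thus came from both diets. Markers of other lists parted among themselves in these libraries. The sums of epithelial markers were highest in CTL 14, 719 CPM, and HFB 6, 716 CPM, with HFB 5 close at 680.5 CPM, but the epithelial score of HFB 5, 5.23, exceeded the 5.21 of HFB 6, and Epcam in HFB 6, 50.8 CPM, lay within the range of the others. Of the endothelial markers Pecam1 stood at 237 CPM in CTL 14 and 254 CPM in HFB 6 against at most 60.4 CPM elsewhere, while Cdh5 was lowest in HFB 6, at 2.78 CPM, and the endothelial score of HFB 6, 3.74, lay within the range of the others. Epcam and Cdh5 were named after their values were seen. In a whole gland, fewer cells of a type and less RNA per cell cannot be told apart.

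The first question was whether the maintenance genes differed between the diets. Dnmt1, the maintenance methyltransferase, ran from 25.6 CPM (median 37.8, highest 52.8) in HFB glands and from 28.0 CPM (median 37.6, highest 68.9) in CTL glands. CTL 14 and HFB 6 held the highest levels, HFB 3 and CTL 8 the lowest, and the diets overlapped from 28.0 to 52.8 CPM, with CTL 14 above every HFB library. The mean was 38.4 ± 10.5 CPM (SD, n = 6) under HFB and 41.6 ± 14.3 CPM (SD, n = 6) under CTL. The edgeR log2 fold change, HFB minus CTL, was -0.12 (SE 0.24, 95% interval -0.63 to 0.40, adjusted p 0.999). It turned to 0.11 without CTL 14, and a two-sided exact permutation test over all assignments of 6 libraries to each diet gave p = 0.695.

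Uhrf1, the partner that recognises half-methylated CpG, was a low-count gene of 223 reads in all. Its level ran from 0.397 CPM (median 5.61, highest 11.04) in HFB glands and from 4.33 CPM (median 8.06, highest 11.1) in CTL glands. HFB 6 stood lowest with 1 read, a 95% Poisson interval of 0.0101 to 2.21 CPM that overlapped the intervals of HFB 2 and CTL 8 and of no other library. The other 5 HFB libraries and the 6 CTL libraries intermingled. The log2 fold change was -0.41 (SE 0.47, 95% interval -1.43 to 0.62, adjusted p 0.999), and the exact permutation p was 0.281. It was -0.16 without HFB 6 and -0.66 without HFB 1. Intervals of this kind cover counting error only. Uhrf1 overlaps Arrdc5 in the annotation and the use of strand is not stated, so reads from the shared stretch cannot be told apart. Their share of the Uhrf1 count is not known.

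The promoters of both genes are shown because HFB 6 held them at opposite ends, Dnmt1 near its highest and Uhrf1 at its lowest, and because CpG is what their products act on. Each is the 250 bases before a start site in RefSeq (build GRCr8), 5′ to 3′ on the gene's strand, with CpG in capitals. The RefSeq table held a promoter for 8 of the 9 listed genes, all but Dnmt3b. Dnmt1 lies on the minus strand at chr8:27762842-27763091, and the Uhrf1 sequence is that of the most downstream of its 3 starts, on the plus strand at chr9:1222936-1223185.
Dnmt1: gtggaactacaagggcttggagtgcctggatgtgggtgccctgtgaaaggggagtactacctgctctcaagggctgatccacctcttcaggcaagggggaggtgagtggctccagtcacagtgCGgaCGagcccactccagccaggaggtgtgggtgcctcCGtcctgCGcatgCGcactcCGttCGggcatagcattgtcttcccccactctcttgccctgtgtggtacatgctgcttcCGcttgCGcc
Uhrf1: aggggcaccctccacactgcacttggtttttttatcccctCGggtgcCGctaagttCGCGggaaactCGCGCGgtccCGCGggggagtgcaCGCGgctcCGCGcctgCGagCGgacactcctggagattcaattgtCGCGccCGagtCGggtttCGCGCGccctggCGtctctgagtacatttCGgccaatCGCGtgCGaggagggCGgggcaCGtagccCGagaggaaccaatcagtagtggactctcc
The Dnmt1 window held 9 CpG, a number reached by 38.5% of the 33469 promoters of the table, and the Uhrf1 window held 30, reached by 5.35%. The Uhrf1 windows not shown held 6 CpG, reached by 49.8%, and 11 CpG, reached by 33.6%, so the one shown is the richest of the 3. Forms of the E2F motif of cell cycle genes were searched on either strand, first as TTCCCGC, then as TTCGCGC, next as TTGCCGC and last as TTGGCGC. These letters were in the Uhrf1 window shown, in the Uhrf1 window with 11 CpG and in 7.59% of all promoters, and not in the Uhrf1 window with 6 CpG. With a further T before them they were in the Uhrf1 window shown, in neither of the other Uhrf1 windows and in 1.73% of all promoters. Neither form was in the Dnmt1 window. These are descriptions of the letters only.

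The de novo writers were compared next. Dnmt3a ran from 6.94 CPM (median 9.19, highest 20.4) in HFB glands and from 5.51 CPM (median 9.28, highest 11.8) in CTL glands. HFB 1 was highest, followed by HFB 6 and CTL 14, and the remaining libraries of both diets intermingled. The log2 fold change was 0.33 (SE 0.29, 95% interval -0.30 to 0.95, adjusted p 0.999), and the exact permutation p was 0.387. It was 0.08 without HFB 1. Dnmt3a has pseudogenes and an overlapping non-coding gene, so its count is uncertain to the extent that reads were split among them.

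Dnmt3b, which acts with Dnmt3a in placing new marks, had 179 reads in all. It ran from 3.08 CPM (median 4.88, highest 11.5) in HFB glands and from 1.68 CPM (median 4.26, highest 13.6) in CTL glands. CTL 14 and HFB 6 were the highest, 3.06 and 2.60 times the median of the other 11 libraries, HFB 1 followed, and CTL 11 was lowest with 4 reads. The log2 fold change was 0.12 (SE 0.47, 95% interval -0.88 to 1.12, adjusted p 0.999), and the exact permutation p was 0.634. Single libraries set its sign and size, since it turned to -0.18 without HFB 6 and to -0.06 without CTL 11, and was 0.66 without CTL 14 and 0.03 without HFB 1. Dnmt3b also has pseudogenes, and 1 of them overlaps it.

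Among the listed readers, Mbd2, which binds methylated CpG, ran from 39.7 CPM (median 95.8, highest 109) in HFB glands and from 78.3 CPM (median 92.6, highest 97.7) in CTL glands. HFB 6 was lowest at 0.421 times the median of the other 11 libraries, HFB 5 and CTL 14 followed, and the rest of both diets lay close together. The mean was 85.9 ± 26.3 CPM (SD, n = 6) under HFB and 91.5 ± 7.16 CPM (SD, n = 6) under CTL. The log2 fold change was -0.09 (SE 0.20, 95% interval -0.53 to 0.34, adjusted p 0.999), and it turned to 0.06 without HFB 6. The exact permutation p was 0.656. Mbd2 overlaps a non-coding gene.

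Mbd3, a NuRD subunit related to Mbd2, had the most reads of the list, 6624 in all. It ran from 182 CPM (median 213, highest 295) in HFB glands and from 168 CPM (median 192, highest 225) in CTL glands. HFB 5 and HFB 6 exceeded every CTL library, and the other HFB libraries lay within the CTL range. The mean was 229 ± 49.3 CPM (SD, n = 6) under HFB and 194 ± 22.6 CPM (SD, n = 6) under CTL. The log2 fold change was 0.24 (SE 0.15, 95% interval -0.08 to 0.57, adjusted p 0.999), and the exact permutation p was 0.145. It was 0.16 without HFB 5 and 0.10 with limma-voom with library quality weights, and with the epithelial score as a covariate it was 0.32 with an unadjusted p of 0.0341 (adjusted p 0.588, against up to 1.00 over the other fits).

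The levels of Mbd2 and Mbd3 parted in the same libraries. Mbd2 had 0.139 reads per Mbd3 read in HFB 6 and 0.243 in HFB 5, against a median of 0.481 over the 12 libraries. This ratio was chosen after its values were seen and is compared between libraries, not between genes. The promoters of the pair are shown for this reason, in the same form as above, Mbd2 on the plus strand at chr18:66449108-66449357 and Mbd3 on the plus strand at chr7:9963390-9963639.
Mbd2: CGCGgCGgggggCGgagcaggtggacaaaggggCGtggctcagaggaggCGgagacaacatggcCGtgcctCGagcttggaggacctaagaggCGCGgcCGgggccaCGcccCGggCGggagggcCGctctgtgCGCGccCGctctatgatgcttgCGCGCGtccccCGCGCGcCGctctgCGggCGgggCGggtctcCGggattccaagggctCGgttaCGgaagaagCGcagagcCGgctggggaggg
Mbd3: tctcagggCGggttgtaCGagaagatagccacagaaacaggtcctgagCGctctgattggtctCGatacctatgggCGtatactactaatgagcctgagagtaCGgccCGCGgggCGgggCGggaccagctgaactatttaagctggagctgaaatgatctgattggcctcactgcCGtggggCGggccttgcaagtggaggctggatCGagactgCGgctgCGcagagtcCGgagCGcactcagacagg
The Mbd2 window held 33 CpG, reached by 3.60% of all promoters, and the Mbd3 window 17, reached by 21.9%. Neither held the E2F letters. CCAAT on either strand was in the Mbd3 window, in the Uhrf1 window and in 34.0% of all promoters.

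**Figure D1:**
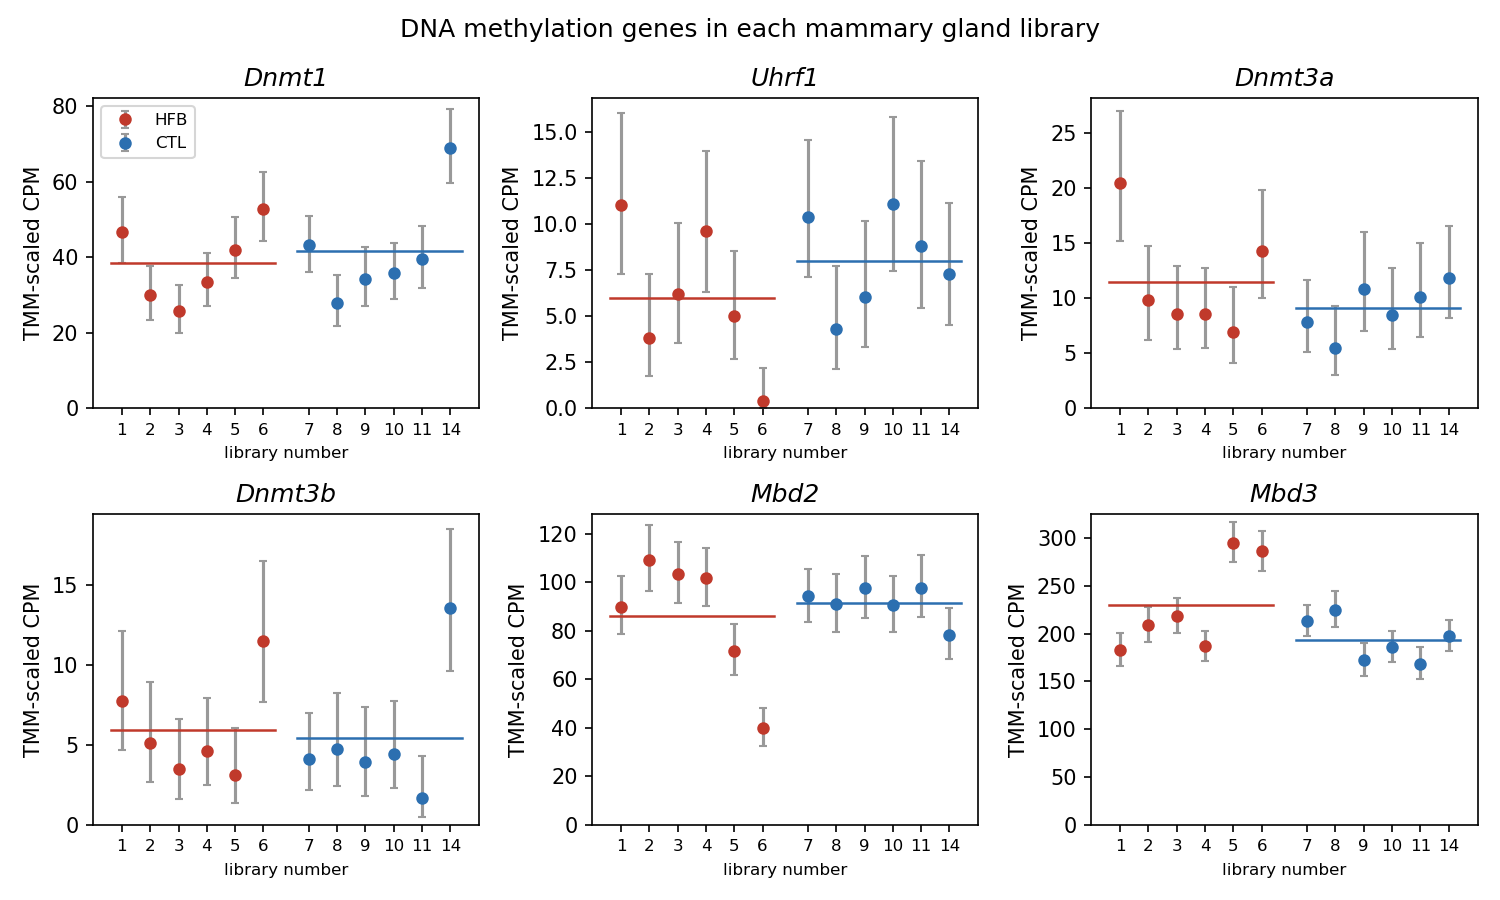
Level of each gene (TMM-scaled CPM, vertical axes from 0) in each of the 12 libraries (horizontal axes, library numbers), with HFB in red and CTL in blue. Points are libraries, grey bars are 95% Poisson intervals of counting error and horizontal lines are diet means, and CTL 14 and HFB 6 are the highest for Dnmt1 and Dnmt3b while HFB 6 is the lowest for Uhrf1 and Mbd2.

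Across the 6 genes, 3 log2 fold changes were above 0 and 3 below, with a median of 0.01 beside 0.00018 over all 9382 genes tested. At an adjusted p under 0.05, edgeR called 0 of the 6 and 0 of all genes (0%), and DESeq2 and limma-voom with library quality weights also called 0 of all genes. At an unadjusted p under 0.05, edgeR called 0 of the 6 and 220 of 9382 genes (2.34%), DESeq2 320 of 13557 genes and the weighted limma-voom 613 genes. The count of 220 changed with some single libraries left out. It was 378 without HFB 1, 389 without HFB 4, 135 without HFB 5 and 141 without CTL 7. Without CTL 10 it was 141, without CTL 11 137 and without CTL 14 587. It changed less without HFB 2 (224), HFB 3 (168), HFB 6 (269), CTL 8 (271) and CTL 9 (181). The 6 libraries of each diet did not overlap for 0 of the 6 genes, against 10 of all genes (0.107%). The intervals still allowed differences of some size, widest for Uhrf1 and Dnmt3b, the genes with the fewest reads.

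**Figure D2:**
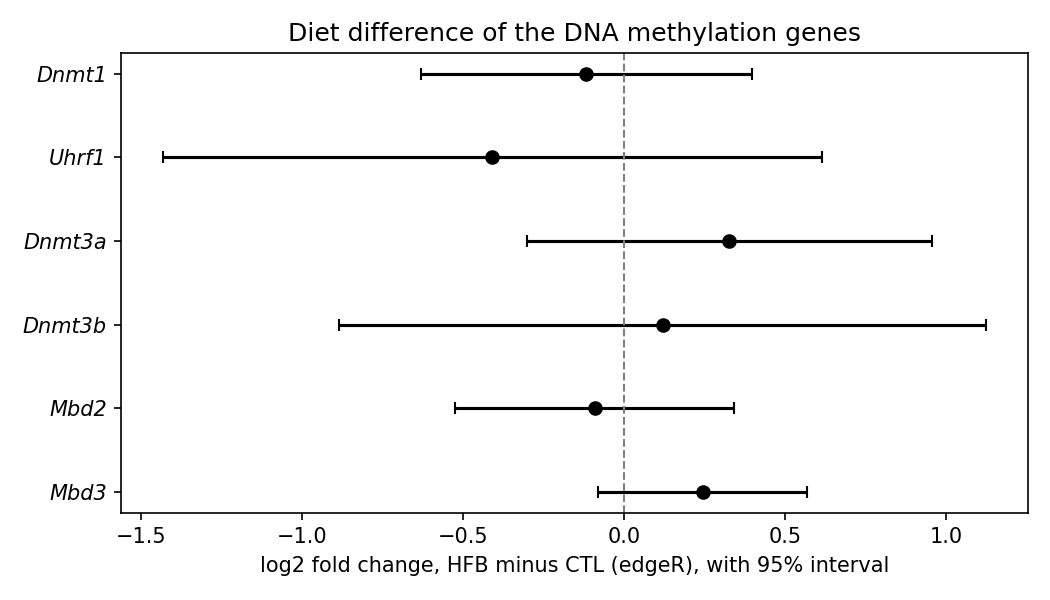
Log2 fold change, HFB minus CTL, of each gene (points) from edgeR over 6 libraries per diet, with 95% intervals (bars) and a dashed line at 0. Every interval includes 0, and the narrowest is that of Mbd3, from -0.08 to 0.57.

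The spread of the counts within a diet was set against counting error, which does not include the differences between animals. The chi-square per degree of freedom, near 1 for counting error alone, was 27.2 for Mbd3 and 20.3 for Mbd2 among the HFB libraries, and 6.68 and 1.53 among the CTL libraries. For Dnmt1 it was 7.18 under HFB and 13.5 under CTL, and for Dnmt3b 4.39 and 8.58. For Uhrf1 it was 6.30 under HFB and 2.20 under CTL, and for Dnmt3a 5.69 and 1.52. Single libraries held the largest terms, HFB 6 for Mbd2 and Uhrf1 and HFB 1 for Dnmt3a among the HFB libraries, and CTL 14 for Dnmt1 and Dnmt3b among the CTL libraries. Without the library of the largest term in each diet, Mbd3 stood at 20.5 under HFB and 5.05 under CTL, and Mbd2 at 5.91 and 0.311. Dnmt1 then stood at 5.27 and 2.46 and Dnmt3b at 1.77 and 0.938, so their order between the diets turned. Uhrf1 stood at 3.26 and 1.29, and Dnmt3a at 2.08 and 0.791. The larger value was thus under HFB for 4 of the 6 genes with all libraries, and for 6 without those libraries. The libraries left out were picked by these same values, and the same counts over all genes were not made. Neither count can therefore be read as particular to these genes. Over all genes compared, the value for a pair of libraries ran from 10.4 to 109 under HFB and from 7.10 to 71.3 under CTL. Which diet had the wider spread was not tested.

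The levels were then set beside marker scores, each the mean log2 CPM of a list. Of 42 relations between 6 genes and 7 scores, 2 passed an adjusted p of 0.05 by Pearson's r and 0 by Spearman's rho. Dnmt3b was higher where the lymphoid score was higher over the 12 libraries (r = 0.89, permutation p = 0.00013, adjusted p 0.00504, and rho = 0.73, permutation p = 0.00962, adjusted p 0.135). Within the diets r was 0.91 for HFB and 0.89 for CTL. Without HFB 6 and CTL 14, the libraries farthest from the median score, r was 0.70 with an adjusted p of 0.258, so the call was lost. With the 2 farthest libraries of each score left out, 0 of the 42 relations passed (smallest adjusted p 0.186). Whether a call was lost through those libraries or through having fewer libraries was not tested.

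Dnmt1 was related to the adipocyte score in the opposite direction. Over the 12 libraries r was -0.81 (permutation p = 0.00024, adjusted p 0.00504) and rho -0.82 (permutation p = 0.00174, adjusted p 0.0731), and within the diets r was -0.73 for HFB and -0.93 for CTL. HFB 6 and CTL 14 lay apart from all others on this score. Over the remaining 10 libraries r was -0.65 (permutation p = 0.0393, adjusted p 0.275) and rho -0.70 (permutation p = 0.030), so the adjusted call was lost here too. The relations of Dnmt1 with the other scores did not pass an adjusted p of 0.05. With the lymphoid score r was 0.72 (permutation p = 0.00867, adjusted p 0.0655), and 0.29 without HFB 6 and CTL 14. With the epithelial score r was 0.49 (permutation p = 0.102, adjusted p 0.357) and rho 0.59 (permutation p = 0.0464, adjusted p 0.245). Without HFB 1 and HFB 2, the farthest on that score, r was 0.81 (permutation p = 0.00444, adjusted p 0.186) and rho 0.90 (permutation p = 0.00072). The levels of Dnmt1 with the proliferation score, a mean over 15 of 18 listed cell cycle genes led by Mcm6, gave r = 0.66 (permutation p = 0.0192, adjusted p 0.101) and rho = 0.62 (permutation p = 0.0370, adjusted p 0.245), and r = 0.56 without HFB 3 and CTL 9. Uhrf1, also a gene of dividing cells, gave r = 0.26 (permutation p = 0.432, adjusted p 0.672) and rho = 0.42 (permutation p = 0.175, adjusted p 0.458) with that score, and r = 0.39 without the same libraries. The single Uhrf1 read of HFB 6 stood beside a proliferation score of 4.50 in that library, within the range of 4.04 to 4.90 over the 12 libraries. That score is a mean and its markers parted in HFB 6, where Top2a was lowest, at 9.52 CPM against at least 18.5 CPM elsewhere, and Mcm6, at 76.6 CPM, was exceeded in CTL 14 alone. Top2a was named after its values were seen. Other relations at an adjusted p of 0.0655 by r were those of Mbd2 with the adipocyte score (r = 0.80, and 0.73 without HFB 6 and CTL 14), Dnmt3a with the lymphoid score (r = 0.74, and 0.77 without the same libraries), Dnmt3b with the adipocyte score (r = -0.76, and 0.20 without them) and Mbd3 with the endothelial score (r = -0.72, and -0.67 without HFB 5 and CTL 14). The part of these cell types in the levels of the 6 genes was not tested.

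**Figure D3:**
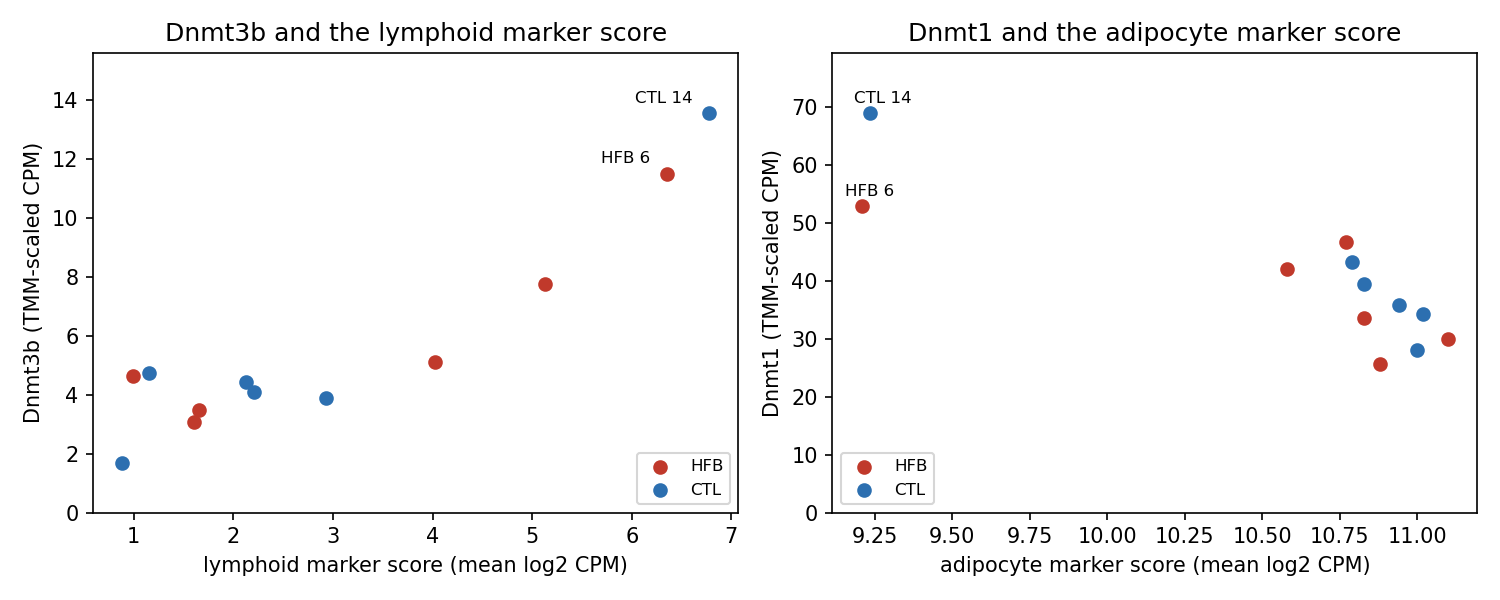
Left, Dnmt3b (TMM-scaled CPM) against the lymphoid marker score and, right, Dnmt1 against the adipocyte marker score (mean log2 CPM), with 1 point per library, HFB in red and CTL in blue. HFB 6 and CTL 14 lie at the high end of the lymphoid score and the low end of the adipocyte score, at 6.35 and 6.78 and at 9.21 and 9.24.

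None of the 7 marker scores differed between the diets at an adjusted p under 0.05 by the exact permutation test. HFB minus CTL was -0.28 for proliferation (exact p = 0.0909), -0.45 for epithelial (exact p = 0.351), -0.07 for adipocyte (exact p = 0.665) and 0.62 for lymphoid markers (exact p = 0.617). It was 0.42 for skeletal muscle (exact p = 0.682), 0.84 for red blood cell (exact p = 0.178) and -0.26 for endothelial markers (exact p = 0.208). Gene by gene, 14 of 15 proliferation markers had a log2 fold change below 0 (median -0.25, beside 0.00018 over all genes), and edgeR gave 4 of the 15 an unadjusted p under 0.05, against 2.34% of all genes, and 0 an adjusted one. With the proliferation score as a covariate the value of Dnmt1 was 0.20. The 9 tested epithelial markers were below 0 (median -0.21), and the 9 skeletal muscle (median 0.42) and 5 red blood cell markers (median 0.93) above 0. Of the others, 5 of 6 lymphoid, 4 of 9 adipocyte and 1 of 3 endothelial markers tested were above 0. Markers of a list can rise and fall together in a library, so the signs within a list, those for proliferation included, are not separate observations. They add no test to those of the scores. Epithelial markers, 10 of 12 in the table with Cldn3 at 0 and Krt8 the most counted, summed to 124 to 716 CPM under HFB and 208 to 719 CPM under CTL. Endothelial markers, 4 of 5 with Cldn5 at 0, were led by Pecam1, skeletal muscle markers, 9 of 9, by Acta1, and red blood cell markers, 5 of 6, by Hbb.

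Genes that work with these enzymes were taken from 6 further lists, which held 69 genes, 62 of them in the table and 52 tested. At an adjusted p under 0.05 edgeR called 0 of the 52, and at an unadjusted p under 0.05 also 0, against the 2.34% over all genes. In other readers of methylated DNA, 3 of 5 tested genes had a log2 fold change above 0 (median 0.09). Uhrf2, a relative of Uhrf1, had the most reads of these and reached 138 CPM in CTL 14 and 97.2 CPM in HFB 6, against medians of 42.1 CPM under CTL and 41.9 CPM under HFB. Mbd1, another methyl-CpG binder, was also highest in HFB 6 and CTL 14, at 40.1 and 26.1 CPM.

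In the NuRD complex, 5 of 9 genes were above 0 (median 0.03). Rbbp7, a histone-binding subunit, had the most reads, 172 ± 13.4 CPM under HFB and 183 ± 17.4 CPM under CTL (SD, n = 6 each). The smallest p values were those of Rbbp4, its relative, with a log2 fold change of 0.17 (SE 0.12), and Cdk2ap1, with 0.18 (SE 0.13). Both were highest in HFB 5, as Mbd3 was, and stood at 143 and 147 CPM in HFB 6.

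In the base excision steps, 8 of 10 tested genes were above 0 (median 0.07). Gadd45a, a DNA damage response gene, had the most reads and was lowest in HFB 6 and CTL 14, at 34.1 and 43.2 CPM. Tdg, the glycosylase that removes oxidised methylcytosine, had a log2 fold change of -0.19 (SE 0.14), and Gadd45g 0.26 (SE 0.27). Tdg was highest in CTL 14, at 70.6 CPM, and Gadd45g in HFB 6, at 44.8 CPM.

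In the supply of S-adenosylmethionine, the methyl donor, 8 of 12 tested genes were below 0 (median -0.09). Ahcyl1 had the most reads and was lowest in HFB 6 and CTL 14, at 120 and 134 CPM. Mtr, methionine synthase, was at 5.10 ± 1.42 CPM under HFB and 7.12 ± 2.22 CPM under CTL (SD, n = 6 each), a log2 fold change of -0.48 (SE 0.28). Mat2b, the regulatory subunit of the enzyme that makes the donor, had -0.22 (SE 0.18), and both diets overlapped for each gene.

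Of the partners of the methyltransferases, 7 of 9 tested genes were below 0 (median -0.13). Hells, a chromatin remodeller needed for normal methylation, had a log2 fold change of -0.39 (SE 0.25) and Ehmt1, a histone methyltransferase, -0.19 (SE 0.14). Trim28, a co-repressor, had the most reads and reached 325 CPM in HFB 6 and 275 CPM in CTL 14, against medians near 115 CPM in each diet. Among genes of 2-oxoglutarate supply and Tet partners, 4 of 7 were above 0 (median 0.03). Idh2, which makes 2-oxoglutarate in mitochondria, was lowest in the libraries low in fat markers, at 104 CPM in HFB 6 and 128 CPM in CTL 14 against medians of 320 and 324 CPM. Idh3g had 0.11 (SE 0.15) and Cxxc5, a CpG-binding protein, 0.10 (SE 0.14).

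The genes whose log2 CPM was most like that of each member over the 12 libraries are given as a description, among 9381 others. Dnmt1 was most like Pfkp (r = 0.94) and Lpcat4 (r = 0.93), and Uhrf1 like Plekha8 (r = 0.96) and Mrc2 (r = 0.95). Dnmt3a was most like Dock8 (r = 0.87) and Gimap9 (r = 0.84), and Dnmt3b like Pcgf6 (r = 0.96) and Evi2a (r = 0.96). No gene was named for both members of either pair. Ivns1abp was among the genes most like Mbd2 (r = 0.97), and Mbd3 was most like Ube2m (r = 0.98) and Serf2 (r = 0.97).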

How the data were processed

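The authors deposited raw counts of reads per gene for 12 libraries, without normalization; per the labels' processing notes, bcl2fastq, CASAVA 1.8, TopHat, DESeq and build rn4 were named, with no role given. The counting program and strand use are not given in the sources used here. Of 16511 Entrez identifiers, 16351 matched a symbol in RefSeq (GRCr8). CPM were computed from the deposited counts with TMM factors. The diets were compared in R 4.3.3 by the quasi-likelihood test of edgeR 4.0.16, with filterByExpr keeping 9382 genes and p-values adjusted after Benjamini and Hochberg, a procedure also tested on simulated data. In those data edgeR found 38% of 2-fold and 78% of 4-fold changes, and 7 of its 123 calls were false. DESeq2 found 51% and 89%, and 28 of its 168 calls were false. Single values had a two-sided exact permutation test over all assignments of 6 against 6 on log2(CPM + 1), smallest p 0.0022. Scores and correlations used log2 CPM with prior count 2 and 100000 permutations (Python 3.11.15, scipy 1.17.1). Named genes were the members and, in each pathway list, the 2 with the smallest p and the one with most reads; likeness took the 2 highest r, of which 1 gene is not reported here. Alternatives used DESeq2 1.42.0 and limma 3.58.1, other scalings, filters, score covariates and left-out libraries. Every pair of libraries within a diet differed beyond counting error. Members and lists were chosen with earlier results of these data known.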

Additional observations from a re-analysis of the deposited data

Results flagged for a closer look

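Of 28 groups of 6 libraries examined, 8 values, from 5 libraries, lay far from the other 5 of their diet by Dixon's 95% criterion, where chance gives about 1.4. The adipocyte score was 9.21 in HFB 6, with the nearest HFB library at 10.6, and 9.24 in CTL 14, with the nearest CTL library at 10.8. The lymphoid score was 6.78 in CTL 14, against 2.93 in the next CTL library. Mbd2 was 6.31 log2 CPM in CTL 14, against 6.51 in the next CTL library. The proliferation score was 4.11 in CTL 9, against 4.63, and the red blood cell score 11.1 in the same library, against 9.25. Total counts were 2320267 in HFB 1, against 2629159, and 2944680 in CTL 7, against 2570080.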

How the results depend on the processing

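At an adjusted p under 0.05, 0 genes were called by edgeR, under each of 10 alternatives and in each of 12 fits without a library. The smallest adjusted p of a member over these fits was 0.588, for Mbd3 with the epithelial score as covariate (log2 fold change 0.32, unadjusted p 0.0341), where alone a member had an unadjusted p under 0.05. The count at an unadjusted p under 0.05, 220, became 613 with limma-voom with library quality weights, which changes the test and the weights together, 353 with the lymphoid score, 780 with the epithelial score and 431 without CTL 14 and HFB 6, and 135 to 587 without a single library. The cause was not tested.

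The log2 fold change of Dnmt1, -0.12, turned to 0.013 with the epithelial score and 0.20 with the proliferation score as covariate, was -0.02 without CTL 14 and HFB 6 and -0.18 with the lymphoid score, and ran from -0.23 to 0.11 without a single library. That of Dnmt3b, 0.12, turned to -0.0025 with the lymphoid score but rose to 0.63 with the proliferation score, 0.34 with weighted limma-voom, 0.34 without CTL 14 and HFB 6 and 0.28 with the epithelial score, and ran from -0.18 to 0.66 without a single library. That of Mbd2, -0.09, turned to 0.058 with weighted limma-voom and to 0.018 without CTL 14 and HFB 6, fell to -0.25 with the proliferation score and -0.24 with the epithelial score, and ran from -0.17 to 0.056 without a single library. The cause was not tested. Over all of these fits Uhrf1 (-0.66 to -0.16), Dnmt3a (0.08 to 0.45) and Mbd3 (0.10 to 0.32) kept their sign. Uhrf1 and Dnmt3b had too few reads for the filter of at least 10 counts in every library.

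Without HFB 6 and CTL 14, r was -0.65 for Dnmt1 with the adipocyte score (adjusted p 0.275) and 0.70 for Dnmt3b with the lymphoid score (adjusted p 0.258). The depth, at most 2944680 counts per library, limits what can be seen for genes of a few reads. No paired analysis was possible because HFB and CTL libraries carry different numbers.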
